A study of Mus musculus with 34 samples.

Results

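The receptors, bridging ligands and signalling genes with which a phagocyte takes up dying cells were followed together with the pair of genes that restrains the uptake. The 10 genes, of 21631 protein-coding genes in the annotation, were chosen by name: the receptors Mertk, Axl, Tyro3 and Timd4, the ligands Gas6, Pros1 and Mfge8, the signalling adaptor Elmo1, and the restraint genes Sirpa and Cd47. All 10 were found. The values are lengths in kb under called peaks of H3K4me3, H3K9ac, H3K27ac and H3K9me3 in microglia of the mouse hippocampus. They come from ULI-NChIP-seq, a native chromatin immunoprecipitation on small numbers of cells, in which each library was reduced by the authors to a list of peaks. Libraries labelled FGR, from a study whose title speaks of intrauterine growth restriction, were set against libraries labelled Ctrl, with 4 per mark and group. Both groups have the genotype Tmem119-tdTomato+/-, a fluorescent reporter at a gene that microglia express. The labels give an age of 3 weeks after birth for replicates 1 to 3 and none for replicate 4, while the design text gives 3 weeks without exception. They do not give how FGR was brought about, the sex, or whether a library came from 1 animal or from several. Each p-value therefore reads a difference against the variation among these libraries alone, part or all of which may be technical. In bulk cells, fewer cells with a mark and less of it per cell cannot be told apart.

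A dying cell moves phosphatidylserine to the outer face of its membrane. Gas6 and protein S, the product of Pros1, bridge that lipid to the receptor tyrosine kinases Tyro3, Axl and Mertk, Mfge8 bridges it to integrins, and the Timd4 protein binds it directly. Elmo1 acts with Dock proteins to activate Rac and shape the phagocytic cup. Cd47 on the target binds Sirpa on the phagocyte, which recruits phosphatases and holds engulfment back. Microglia use Mertk and Axl to clear dying neurons and use several of these genes in shaping synapses. H3K4me3 marks active promoters, H3K9ac and H3K27ac mark active promoters and enhancers, and H3K9me3 marks heterochromatin.

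Coordinates are those of mm10, and genes were taken from the RefSeq table of GRCm38.p6, the assembly behind it. Mertk lay at chr2:128698915-128803162, Tyro3 at chr2:119797740-119818104 and Sirpa at chr2:129591042-129632228, with 0.788 Mb between Mertk and Sirpa. Axl lay at chr7:25756500-25788924, Mfge8 at chr7:79133768-79149060, Gas6 at chr8:13465374-13494535 and Timd4 at chr11:46810786-46844333. Elmo1, at chr13:20090507-20608353, was the longest of the 10, and Pros1 (chr16:62854307-62929346) and Cd47 (chr16:49851328-49912503) shared a chromosome. A gene-end value is the covered length within 2.5 kb of either end of the gene, 10 kb in all, and a gene-body value covers the whole gene with 20 kb flanks. A gene end of Hnrnpul1 fell in the end window of Axl, 1 of Tmem255b in that of Gas6 and 1 of Hapln3 in that of Mfge8, so peaks there could belong to either gene.

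Promoter sequences of 9 members were in the RefSeq table of GRCm38.p6, from 250 bases before to 50 bases after each listed start, and Sirpa had none there. Those of 5 members are printed because peaks over them differed most in kind: Mertk and Elmo1, whose start was wholly under H3K27ac in Ctrl libraries alone, Pros1, which was whole under H3K27ac in every library, Cd47, whose start lies away from the annotated gene end, and Timd4, which had no peak. Each runs 5′ to 3′ on the strand of the gene. Capitals mark GAGGAA, the short core bound by PU.1, a factor that defines microglia and macrophages, on either strand.
Mertk promoter, chr2:128698665-128698964, plus strand: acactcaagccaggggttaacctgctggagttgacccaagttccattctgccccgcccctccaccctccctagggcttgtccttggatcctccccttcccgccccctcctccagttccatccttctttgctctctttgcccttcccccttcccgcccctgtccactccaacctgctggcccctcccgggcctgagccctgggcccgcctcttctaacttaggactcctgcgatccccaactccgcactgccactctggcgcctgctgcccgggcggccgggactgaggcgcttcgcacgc
Pros1 promoter, chr16:62854057-62854356, plus strand: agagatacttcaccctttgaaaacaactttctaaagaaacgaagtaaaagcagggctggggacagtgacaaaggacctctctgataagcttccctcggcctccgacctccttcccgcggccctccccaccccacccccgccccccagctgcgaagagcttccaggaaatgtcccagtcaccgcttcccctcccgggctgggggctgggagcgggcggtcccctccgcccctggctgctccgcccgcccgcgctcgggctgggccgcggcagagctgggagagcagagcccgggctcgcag
Elmo1 promoter (first listed start), chr13:20090257-20090556, plus strand: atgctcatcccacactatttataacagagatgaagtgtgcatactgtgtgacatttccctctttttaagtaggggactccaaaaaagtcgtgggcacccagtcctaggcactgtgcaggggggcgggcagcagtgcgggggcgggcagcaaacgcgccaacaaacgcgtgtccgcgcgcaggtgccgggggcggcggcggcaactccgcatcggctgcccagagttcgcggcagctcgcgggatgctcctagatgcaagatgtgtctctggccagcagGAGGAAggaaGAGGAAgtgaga
Cd47 promoter (first listed start), chr16:49855404-49855703, plus strand: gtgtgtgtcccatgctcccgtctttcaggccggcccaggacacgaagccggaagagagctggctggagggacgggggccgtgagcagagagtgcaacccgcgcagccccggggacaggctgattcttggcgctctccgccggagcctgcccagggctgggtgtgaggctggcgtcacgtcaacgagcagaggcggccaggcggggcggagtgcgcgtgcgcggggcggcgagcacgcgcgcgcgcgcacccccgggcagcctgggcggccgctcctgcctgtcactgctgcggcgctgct
Timd4 promoter, chr11:46810549-46810848, plus strand: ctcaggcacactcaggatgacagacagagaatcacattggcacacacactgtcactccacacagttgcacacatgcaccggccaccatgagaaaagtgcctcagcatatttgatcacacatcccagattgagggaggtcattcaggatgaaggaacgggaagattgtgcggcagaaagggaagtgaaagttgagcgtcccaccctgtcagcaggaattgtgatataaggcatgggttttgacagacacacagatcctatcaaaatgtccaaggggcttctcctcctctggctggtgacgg

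Among these 5, GAGGAA stood in the Elmo1 window, at 2 places 28 and 38 bases after the start, and the copy at 38 also forms the longer GAGGAAGT. Axl and Mfge8 each held 1 GAGGAA on the opposite strand. Of all 21045 promoters in the table, 27.18% held GAGGAA and 3.15% held GAGGAAGT on either strand. TATAAA, the TATA box, stood in 12.66% of all promoters on either strand and once among the members, on the opposite strand 233 bases before the first start of Elmo1. The number of CG dinucleotides was 35 at the first start of Cd47, 31 at Tyro3, 21 at Pros1 and at the first start of Elmo1, 14 at Mertk, 6 at Axl and 5 at Timd4, beside a median of 13 and quartiles of 4 and 25 over all promoters. Timd4 and Axl thus stood below the median, and Cd47 and Tyro3 above the upper quartile. The whole 300 bases of the Mertk window were under H3K27ac in 0 of 4 FGR libraries and 4 of 4 Ctrl libraries, and the same counts held for the first Elmo1 window. At Pros1 and at Cd47 all 4 libraries of both groups had the whole window under H3K27ac, and at Timd4 no library of either group had a base of it under H3K4me3, H3K9ac or H3K27ac.

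The FGR and Ctrl lists differed in build. Narrow H3K27ac lists held 53492 to 78143 peaks with median widths of 314 to 365 bp in FGR, against 45988 to 50116 peaks of 825 to 919 bp in Ctrl. H3K4me3 lists held 43175 to 49045 peaks in FGR, against 16598 to 18391 in Ctrl. H3K9ac lists held 54853 to 87128 peaks with median widths of 407 to 459 bp in FGR, against 42220 to 47729 peaks of 634 to 696 bp in Ctrl. Sequencing depth is unknown. The local background solved from each peak's fold and p-value, a relative measure of depth, was 0.621 to 0.767 in FGR and 2.388 to 2.751 in Ctrl for H3K27ac, and it was lower in FGR for H3K4me3 and H3K9ac too. All 10 of 10 microglial markers had H3K27ac at a gene end in every library, summing to 41.5 to 50.1 kb in FGR and 78.3 to 79.9 kb in Ctrl. Neuronal markers summed to 0 to 0.364 kb in FGR and 0 kb in Ctrl. Astrocyte markers had 3 to 4.3 kb of H3K27ac in FGR and 3.7 to 5.3 kb in Ctrl. Border macrophage markers had 1.5 to 2.6 and 3 to 3.4 kb, endothelial markers 1.9 to 2.5 and 2.4 to 4 kb. Oligodendrocyte markers had 0.6 to 0.87 and 1.4 to 1.8 kb, lymphocyte markers 0.059 to 0.297 and 0.506 to 1.18 kb. Microglial H3K9ac summed to 27.9 to 30 kb in FGR, with Gpr34 at 0 in every library, and 46.3 to 49.1 kb in Ctrl. In H3K9ac, 7 neuronal markers summed to 4.13 to 6.67 kb in FGR and 0.325 to 0.709 kb in Ctrl, with Gad1 and Snap25 at 0 in all 8 libraries, and 5 oligodendrocyte markers to 2.16 to 4.65 kb in FGR and 0 to 1.41 kb in Ctrl. Border macrophage markers, 6 in number, summed in H3K9ac to 0 to 1.5 kb in FGR and 2.4 to 2.69 kb in Ctrl, astrocyte markers to 3.28 to 6.34 kb in FGR and 3.82 to 5.75 kb in Ctrl, endothelial markers to 2.56 to 5.63 kb in FGR and 1.51 to 2.75 kb in Ctrl, and lymphocyte markers to 0 to 0.394 kb in FGR and 0.147 to 0.472 kb in Ctrl. Their part in the H3K9ac results below was not tested.

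The H3K4me3 and H3K9ac labels of FGR need a caution, and every direction given for these marks holds for the libraries as labelled. Over gene bodies of all genes, FGR libraries labelled H3K4me3 correlated with Ctrl libraries labelled H3K9ac at a mean r of 0.89 and with Ctrl H3K4me3 libraries at 0.825, over 16 pairs of libraries each, which share genes and window lengths. FGR H3K9ac libraries correlated at 0.708 with Ctrl H3K9ac and at 0.6 with Ctrl H3K4me3. Among the members, mean FGR H3K4me3 over the gene body was closer to Ctrl H3K9ac than to Ctrl H3K4me3 at 8 of 10 genes, beside 73.3% of all genes with coverage. At Pros1, for example, FGR H3K4me3 was 5.68 kb, Ctrl H3K9ac 6.7 kb and Ctrl H3K4me3 1.31 kb. Mean FGR H3K9ac was closer to Ctrl H3K4me3 than to Ctrl H3K9ac at 5 of 10 members, beside 28% of all genes. At the gene ends these counts were 6 of 8 and 2 of 8 members, beside 69.3% and 33.8% of all genes with coverage. Whole lists covered 35.4 to 39.9 Mb in FGR H3K4me3, 42 to 44.7 Mb in Ctrl H3K9ac and 10.6 to 12.3 Mb in Ctrl H3K4me3. Closeness in kb, here and at single genes below, can come from these totals alone. Whether labels were exchanged was not tested.

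At the gene ends, called H3K4me3 was longer and called H3K27ac shorter in FGR at most members, while H3K9ac moved both ways; these are directions as deposited, and after quantile normalization the sign was reversed with a call at Mfge8 in H3K4me3 and at Pros1 and Elmo1 in H3K27ac, and without a call at Mertk in H3K4me3 and at Axl and Gas6 in H3K27ac. The p-values are two-sided, from limma, and Benjamini-Hochberg adjusted over every gene with enough coverage to test, and a gene was called at 0.05. For H3K4me3, 8 of the 8 testable members were higher in FGR, where 95.5% of 14043 genes were higher and 0 were lower, so the share at the members is near that of the genome. In each of the 8 every FGR library was above every Ctrl library (93% of genes). For H3K9ac, 2 of 8 members were higher (Tyro3 and Mfge8; 28.5% of 15605 genes) and 4 were lower (Mertk, Pros1, Sirpa and Elmo1; 30% of genes), all 6 without overlap between the groups (25.3% of genes higher and 28.8% lower in that way). For H3K27ac, 6 of 8 members were lower (Mertk, Axl, Gas6, Pros1, Sirpa and Elmo1; 81.6% of 11876 genes) and 0 were higher (0.185% of genes). The groups did not overlap at 5 of these 6, Gas6 being the exception (74% of genes). The median difference at the tested members was 1.42 kb in H3K4me3, -0.153 kb in H3K9ac and -0.812 kb in H3K27ac, beside 0.887, 0.0308 and -0.707 kb over all genes tested. Cd47 and Timd4 had no covered gene end in H3K4me3 or H3K9ac, and Tyro3 and Timd4 had none in H3K27ac, so these were not tested.

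**Figure D1:**
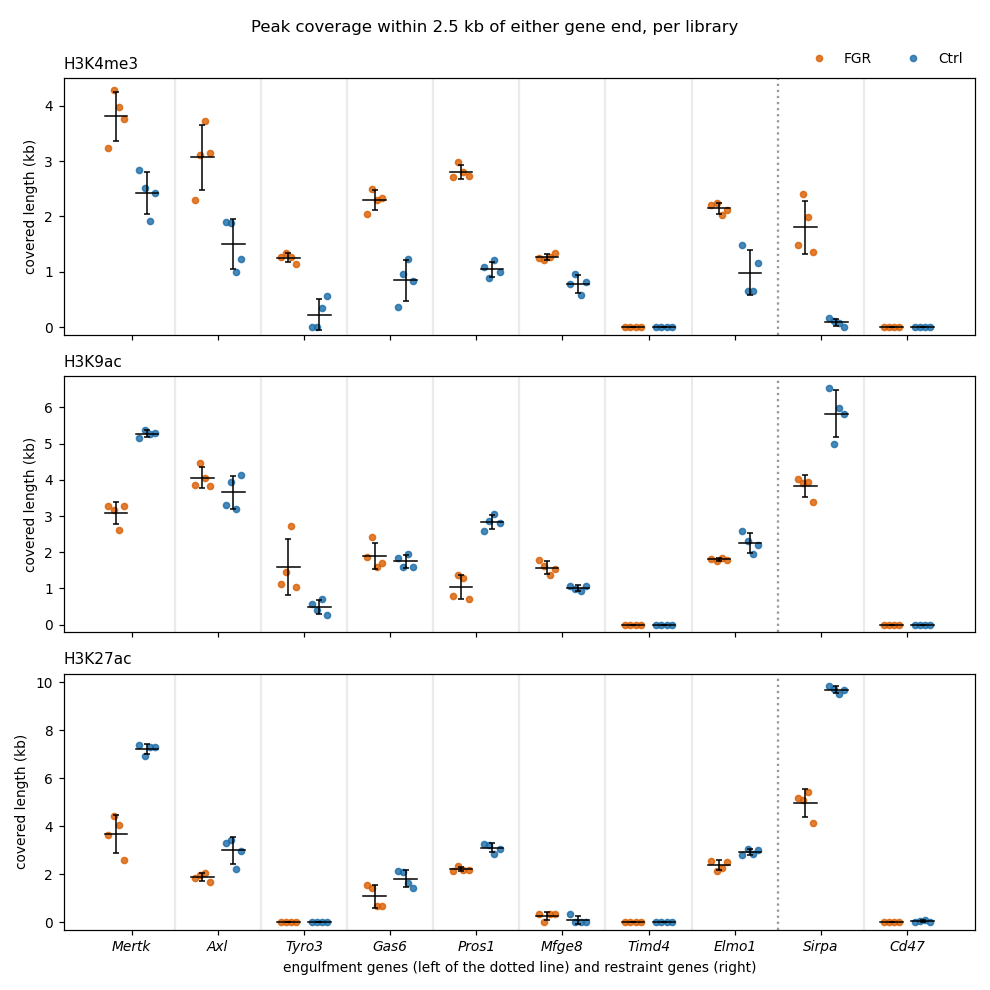
Covered length in kb within 2.5 kb of either gene end for each of the 10 genes, 1 panel per mark. Each point is a library, FGR (orange) left of Ctrl (blue), with the mean as a line and the SD as a bar (n = 4); Mertk has 2.58 to 4.42 kb of H3K27ac in FGR and 6.91 to 7.37 kb in Ctrl libraries.

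Because the whole lists differed in coverage, the same test was run after quantile normalization, which gives every library the same distribution over genes and moved the median difference over all genes to -0.0946 kb in H3K4me3, -0.0731 kb in H3K9ac and 0.0482 kb in H3K27ac. On that scale 2 members were higher in H3K4me3 (Pros1 and Sirpa; 15.8% of genes) and 1 was lower (Mfge8; 24.2%). In H3K9ac 2 were higher (Tyro3 and Mfge8; 23% of genes) and 3 lower (Mertk, Pros1 and Sirpa; 31.6%). In H3K27ac 2 were lower (Mertk and Sirpa; 11.3% of genes) and 2 were higher (Pros1 and Elmo1; 12.5%), the last pair with the sign turned round from the deposited scale. Mertk and Sirpa were thus lower in FGR in both acetylation marks on both scales. For lists matched for depth, every peak was scaled to the lowest local background of its mark, and peaks that then failed the threshold were dropped. In these lists the H3K27ac difference was -2.3 kb at Mertk (limma, adjusted p = 0.00041) and -4.69 kb at Sirpa (adjusted p = 8.73e-06). The peaks kept stayed as wide as they were called, so this matching could not remove an effect of depth on peak width.

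**Figure D2:**
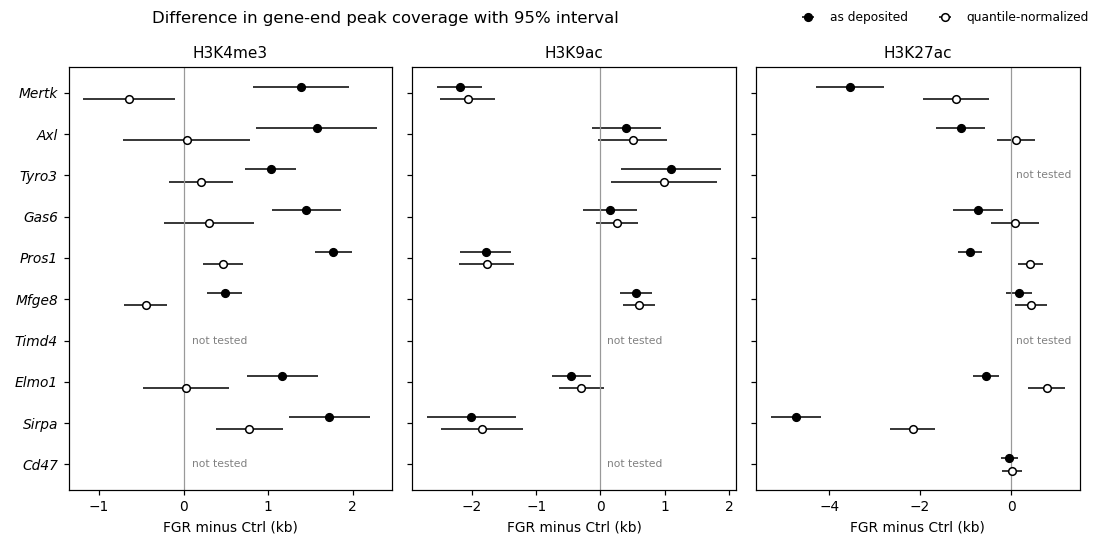
FGR minus Ctrl difference in gene-end coverage in kb with its 95% interval, as deposited (filled) and after quantile normalization (open), 1 panel per mark. In H3K27ac the differences of Mertk and Sirpa lie below 0 on both scales, while those of Pros1 and Elmo1 change sign.

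Mertk, the receptor kinase that microglia use for clearing apoptotic cells, had less called acetylation in FGR, at its ends and over its body. Its gene-end H3K27ac was 3.65, 4.42, 4.06 and 2.58 kb in FGR libraries, against 7.37, 6.91, 7.28 and 7.29 kb in Ctrl libraries, a difference of -3.53 ± 0.334 kb (SE; adjusted p = 1.62e-05). Every FGR library was below every Ctrl library, and the difference in kb was lower than that of all but 0.589% of genes. As a ratio, FGR over Ctrl was 0.51, not far from the median of 0.569 over all genes with Ctrl coverage. Gene-end H3K9ac of Mertk was 3.28, 3.16, 2.63 and 3.28 kb in FGR libraries, against 5.14, 5.38, 5.28 and 5.3 kb in Ctrl libraries, again without overlap, a difference of -2.19 ± 0.155 kb (SE; adjusted p = 1.38e-05). Its gene-end H3K4me3 was 3.23, 4.28, 3.98 and 3.77 kb in FGR libraries, against 2.84, 2.52, 1.93 and 2.42 kb in Ctrl libraries, higher in FGR by 1.39 ± 0.249 kb (SE; adjusted p = 0.000604) as deposited but -0.643 kb after quantile normalization (adjusted p = 0.0605). Over the body with flanks, a window that also reaches Anapc1 and Tmem87b, H3K27ac of Mertk was 31.2, 29.5, 29 and 23.9 kb in FGR libraries, against 80.01, 82.7, 79 and 80.7 kb in Ctrl libraries. That is 16.6 to 21.6% of the window in FGR and 54.8 to 57.3% in Ctrl. After quantile normalization the body difference was -21.4 kb (adjusted p = 0.000169).

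The Mertk window differed in the width of H3K27ac peaks, while their numbers overlapped. Its window held 45 to 61 H3K27ac peaks in FGR and 49 to 55 in Ctrl libraries, of mean width 511 to 548 bp in FGR and 1455 to 1647 bp in Ctrl. The numbers of H3K9ac peaks overlapped too, with 18 to 26 in FGR and 25 to 37 in Ctrl, while their mean width was 478 to 588 bp in FGR and 887 to 1175 bp in Ctrl. H3K4me3 differed in number, with 24 to 38 peaks in FGR and 5 to 7 in Ctrl at overlapping widths. Median widths of the whole lists moved in the same direction, and their part in the result was not tested.

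**Figure D3:**
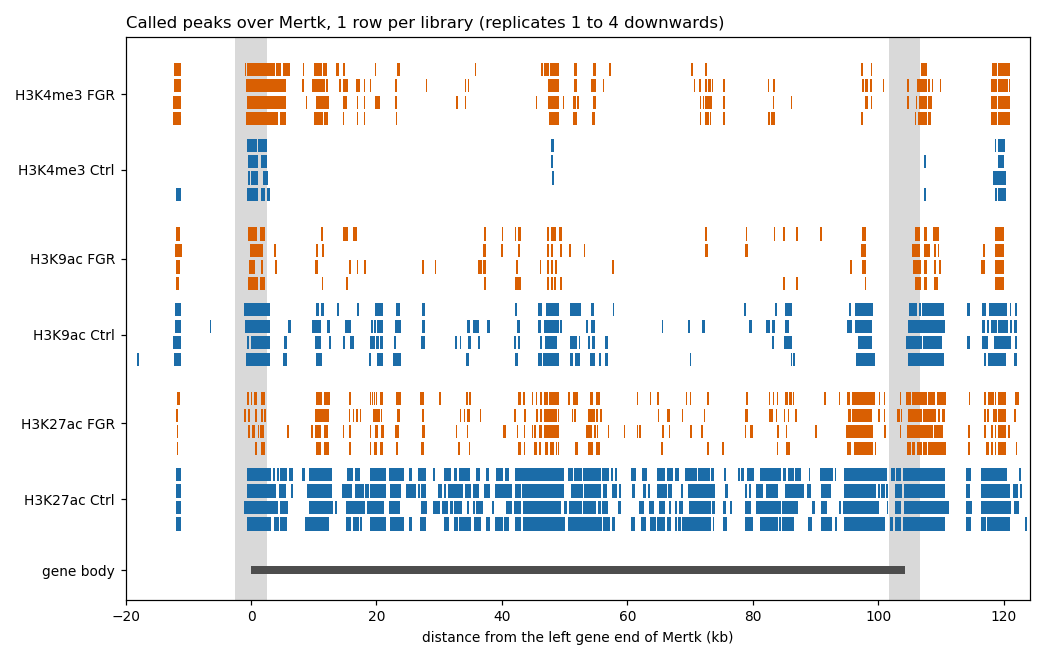
Called peaks over Mertk with 20 kb flanks, by distance in kb from its left gene end, where it starts; 1 line per library, FGR (orange) above Ctrl (blue) for each mark, with the gene-end windows shaded. Ctrl H3K27ac covers 54.8 to 57.3% of the span in broad blocks, and FGR H3K27ac covers 16.6 to 21.6% in short pieces.

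Axl, the relative of Mertk that inflammation induces, showed less H3K27ac in FGR as deposited and no clear difference in H3K9ac at its ends. Gene-end H3K27ac was 1.84, 1.96, 2.06 and 1.67 kb in FGR libraries, against 3.32, 3.44, 2.21 and 2.99 kb in Ctrl libraries, a difference of -1.11 ± 0.243 kb (SE; adjusted p = 0.00213), which became 0.107 kb after quantile normalization (adjusted p = 0.71). Gene-end H3K9ac was 3.86, 4.47, 4.06 and 3.84 kb in FGR libraries, against 3.31, 3.95, 3.21 and 4.14 kb in Ctrl libraries, and the groups overlapped (adjusted p = 0.169). In lists matched for depth the same H3K9ac difference was 1.59 kb, higher in FGR (adjusted p = 0.00139). Over the body H3K9ac of Axl was lower in FGR on both scales, at 7.34 ± 1.43 kb in FGR and 10.8 ± 0.631 kb in Ctrl libraries (SD, n = 4; adjusted p = 0.00415 as deposited and 8.24e-05 after quantile normalization). With 5 kb flanks that difference was 0.058 kb (adjusted p = 0.872). The 20 kb flanks of Axl reach Cyp2s1 and Hnrnpul1. The H3K27ac within 2.5 kb of the listed Axl start overlapped between the groups, at 0.163, 0.197, 0.211 and 0 kb in FGR and 1.12, 1.09, 0 and 0.787 kb in Ctrl libraries, and was called lower in FGR (-0.608 kb, adjusted p = 0.0246). Gene-end H3K4me3 of Axl was 2.3, 3.11, 3.72 and 3.15 kb in FGR libraries, against 1.89, 1.88, 1 and 1.23 kb in Ctrl libraries, a difference of 1.57 ± 0.316 kb (SE; adjusted p = 0.00119) as deposited, which was not called with lists of equal length (0.336 kb, adjusted p = 0.145) or after quantile normalization (0.0373 kb, adjusted p = 0.94).

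Tyro3, the third kinase of the family, best known from neurons, had no H3K27ac at its ends in any of the 8 libraries. Its gene-end H3K4me3 was 1.27, 1.33, 1.28 and 1.13 kb in FGR libraries, against 0, 0, 0.343 and 0.56 kb in Ctrl libraries, and its gene-end H3K9ac was 1.13, 1.47, 2.73 and 1.03 kb in FGR libraries, against 0.575, 0.395, 0.714 and 0.271 kb in Ctrl libraries. Both were higher in FGR without overlap, by 1.03 ± 0.133 kb (SE; adjusted p = 8.79e-05) for H3K4me3 and 1.1 ± 0.342 kb (SE; adjusted p = 0.0218) for H3K9ac. After quantile normalization the H3K4me3 difference was 0.209 kb (adjusted p = 0.34) and that of H3K9ac 0.99 kb (adjusted p = 0.0455). The H3K9ac call was lost without Ctrl replicate 2 (adjusted p = 0.0538), without Ctrl replicate 4 (adjusted p = 0.0583) and without the filter on genes (adjusted p = 0.0692). Within 2.5 kb of the listed start the H3K9ac groups overlapped, with 0.769 kb in FGR replicate 4 and 0.924 kb in Ctrl replicate 3. The difference there was 0.74 kb (limma, adjusted p = 0.027). The other gene-end window holds an H3K9ac region found in FGR alone, chr2:119816582-119817969. Neuronal marker H3K9ac was also higher in FGR, as given above.

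Timd4, a phosphatidylserine receptor of resident macrophages, had almost no called active chromatin. Its ends were at 0 kb for H3K4me3, H3K9ac and H3K27ac in all 24 libraries. Over the body with flanks its H3K4me3 was 0.679, 1.01, 0.803 and 0.779 kb in FGR libraries, against 0, 0, 0 and 0 kb in Ctrl libraries, and its H3K9ac 0, 0, 0 and 0 kb in FGR libraries, against 0.817, 0.737, 0.655 and 0.303 kb in Ctrl libraries. In each mark a region in the flank beyond the gene was called in all 4 libraries of 1 group alone. The FGR H3K4me3 region at chr11:46848090-46848892 and the Ctrl H3K9ac region at chr11:46848076-46848876 lay at the same place. H3K27ac of the Timd4 window overlapped between the groups, at 1.23, 1.41, 0.949 and 0.791 kb in FGR and 1.25, 2.23, 1.06 and 1.23 kb in Ctrl libraries.

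Pros1 encodes protein S, a ligand of Mertk and Tyro3. Its acetylation was lower in FGR at the start as deposited, with H3K27ac turning round after quantile normalization. Gene-end H3K9ac of Pros1 was 0.794, 1.37, 1.29 and 0.72 kb in FGR libraries, against 2.6, 2.86, 3.06 and 2.81 kb in Ctrl libraries, without overlap, a difference of -1.79 ± 0.177 kb (SE; adjusted p = 6.67e-05). Gene-end H3K4me3 was 2.71, 2.98, 2.81 and 2.73 kb in FGR libraries, against 1.09, 0.883, 1.21 and 0.987 kb in Ctrl libraries, higher by 1.77 ± 0.0962 kb (SE; adjusted p = 1.06e-06) and by 0.469 kb after quantile normalization (adjusted p = 0.00928). Gene-end H3K27ac was 2.15, 2.34, 2.18 and 2.17 kb in FGR libraries, against 3.27, 3.24, 2.86 and 3.06 kb in Ctrl libraries, a difference of -0.896 ± 0.118 kb (SE; adjusted p = 0.000107) as deposited and of 0.423 kb after quantile normalization (adjusted p = 0.0339), a reversal of sign. All of these values came from the start, since the listed-start window gave the same numbers.

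Gas6, the ligand of all the TAM receptors, showed no gene-end difference in H3K9ac that passed the test. Its gene-end H3K9ac was 1.87, 2.43, 1.6 and 1.69 kb in FGR libraries, against 1.84, 1.6, 1.96 and 1.59 kb in Ctrl libraries, and the 95% interval of the difference ran from -0.276 to 0.573 kb. Over the body H3K9ac of Gas6 differed by -0.0505 kb as deposited (adjusted p = 0.958), and by -1.59 kb with lists of equal length, where it was called lower (adjusted p = 0.0136). Gene-end H3K27ac was 1.56, 1.43, 0.69 and 0.672 kb in FGR libraries, against 2.12, 2.1, 1.62 and 1.43 kb in Ctrl libraries. The groups overlapped, and the difference of -0.729 ± 0.245 kb (SE; adjusted p = 0.0193) was lost in 4 of the 8 sets that leave out 1 library (without Ctrl replicate 1 or 2, or FGR replicate 3 or 4; adjusted p of 0.0539 to 0.056) and became 0.08 kb after quantile normalization. Gene-end H3K4me3 was higher in FGR as deposited, at 2.3 ± 0.185 kb in FGR and 0.845 ± 0.365 kb in Ctrl libraries (SD, n = 4; adjusted p = 6.82e-05), and not called after quantile normalization (adjusted p = 0.325).

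Mfge8, the bridge to integrins, had little called H3K27ac. Its gene-end H3K27ac was 0.35, 0, 0.364 and 0.347 kb in FGR libraries, against 0.334, 0, 0 and 0 kb in Ctrl libraries, 1 short peak or none per library. Its gene-end H3K9ac was higher in FGR, at 1.78, 1.61, 1.36 and 1.53 kb in FGR libraries, against 1.08, 0.975, 0.918 and 1.08 kb in Ctrl libraries, a difference of 0.559 ± 0.11 kb (SE; adjusted p = 0.00242), and 0.596 kb after quantile normalization (adjusted p = 0.00187). Within 2.5 kb of the listed start the H3K9ac groups overlapped, with 1.066 kb in FGR replicate 2 and 1.082 kb in Ctrl replicate 1. The difference there was 0.3 kb (limma, adjusted p = 0.0375). Gene-end H3K4me3 was 1.26, 1.22, 1.27 and 1.34 kb in FGR libraries, against 0.781, 0.967, 0.575 and 0.815 kb in Ctrl libraries, a difference of 0.485 ± 0.0908 kb (SE; adjusted p = 0.000781) as deposited and of -0.447 kb after quantile normalization (adjusted p = 0.0142). A single H3K4me3 peak made up the whole value in each library.

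Elmo1, the adaptor that links receptors to Rac, differed mostly over its long body. H3K27ac over its body with flanks was 49.2, 52.4, 51.2 and 39.4 kb in FGR libraries, against 117, 117, 113 and 114 kb in Ctrl libraries, a difference of -67.2 ± 2.76 kb (SE; adjusted p = 1.71e-06), and -14.4 kb after quantile normalization (adjusted p = 0.000336). H3K9ac was 8.24, 12.2, 6.42 and 6.39 kb in FGR libraries, against 38.2, 38.5, 37.8 and 37.6 kb in Ctrl libraries, a difference of -29.7 ± 1.22 kb (SE; adjusted p = 3.32e-06). The FGR libraries had 1.15 to 2.18% of the window under H3K9ac, against 6.74 to 6.9% in Ctrl. H3K9ac at Elmo1 differed in the number of peaks, with 11 to 26 in FGR and 46 to 55 in Ctrl libraries. Their mean width differed too, at 468 to 581 bp in FGR and 687 to 836 bp in Ctrl. H3K27ac peaks of Elmo1 overlapped in number, with 74 to 122 in FGR and 91 to 100 in Ctrl. Their mean width was 430 to 572 bp in FGR and 1160 to 1288 bp in Ctrl. At its ends H3K4me3 was 2.15 ± 0.101 kb in FGR and 0.985 ± 0.407 kb in Ctrl libraries (SD, n = 4; adjusted p = 0.000286 as deposited and 0.931 after quantile normalization). Gene-end H3K9ac was 1.8 ± 0.0421 kb in FGR and 2.26 ± 0.265 kb in Ctrl libraries (SD, n = 4; adjusted p = 0.0176 as deposited and 0.129 after quantile normalization). Gene-end H3K27ac of Elmo1 differed by -0.546 kb as deposited (adjusted p = 0.00324) and by 0.78 kb after quantile normalization (adjusted p = 0.012). Over the body H3K4me3 of Elmo1 was 17.1, 21.3, 21.6 and 16 kb in FGR libraries, against 3.83, 1.29, 1.96 and 3.02 kb in Ctrl libraries, higher on both scales (adjusted p = 4.62e-06 as deposited and 0.00109 after quantile normalization).

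Sirpa, the inhibitory receptor, had the longest gene-end acetylation of the 10 in Ctrl libraries and, like Mertk, less of it in FGR. Its gene-end H3K27ac was 5.18, 5.08, 5.44 and 4.12 kb in FGR libraries, against 9.86, 9.7, 9.52 and 9.66 kb in Ctrl libraries, a difference of -4.73 ± 0.249 kb (SE; adjusted p = 1.48e-06), and -2.16 kb after quantile normalization (adjusted p = 0.000258). Almost the whole 10 kb window was covered in Ctrl libraries, and just 0.0674% of genes had a lower difference in kb as deposited. A long Ctrl coverage leaves room for a large difference in kb. As a ratio, FGR over Ctrl was 0.512, not far from the median of 0.569 over all genes with Ctrl coverage. Gene-end H3K9ac of Sirpa was 4.03, 3.93, 3.95 and 3.38 kb in FGR libraries, against 6.54, 4.98, 5.98 and 5.82 kb in Ctrl libraries, a difference of -2.01 ± 0.304 kb (SE; adjusted p = 0.000629). Gene-end H3K4me3 was 1.49, 2.4, 1.98 and 1.36 kb in FGR libraries, against 0.165, 0.108, 0.069 and 0 kb in Ctrl libraries, higher by 1.72 ± 0.21 kb (SE; adjusted p = 6.14e-05) and by 0.777 kb after quantile normalization (adjusted p = 0.00908). Over the body H3K27ac was 18.5, 19.2, 18.4 and 14 kb in FGR libraries, against 43.6, 44.8, 42.2 and 43.3 kb in Ctrl libraries. The window held 23 to 35 peaks of mean width 527 to 799 bp in FGR, and 13 to 18 peaks of mean width 2345 to 3443 bp in Ctrl.

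Cd47, the ligand of Sirpa, had its peaks outside the gene-end windows. Its listed starts lie 4.33 kb inside the annotated gene end, so the gene-end windows held 0 kb of H3K4me3 and H3K9ac in all 16 libraries while the start window was covered in every library. H3K4me3 within 2.5 kb of the listed start was 3.77, 3.7, 4 and 4.02 kb in FGR libraries, against 2.44, 1.47, 1.68 and 1.59 kb in Ctrl libraries. H3K9ac there was 1.41, 1.62, 1.45 and 1.37 kb in FGR libraries, against 3.4, 3.14, 3.39 and 3.8 kb in Ctrl libraries, and H3K27ac 3.04, 2.4, 2.85 and 2.15 kb in FGR libraries, against 3.59, 3.83, 3.92 and 3.66 kb in Ctrl libraries. No group overlapped the other in any of these marks, with adjusted p-values from limma of 1.55e-05, 4.95e-06 and 0.000277 over the 11032, 12132 and 9247 genes tested on listed starts, where 96.6% were higher in H3K4me3, 38.2% lower in H3K9ac and 83.3% lower in H3K27ac. Across the marks, the FGR H3K4me3 values at the Cd47 start thus lie nearer to the Ctrl H3K9ac values than to those of Ctrl H3K4me3, and the FGR H3K9ac values nearer to Ctrl H3K4me3 than to Ctrl H3K9ac. Over the body the H3K4me3 and H3K27ac differences of Cd47 were not called after quantile normalization (adjusted p = 0.865 and 0.305), with H3K27ac turning to 0.38 kb, while the H3K9ac difference was -3.84 kb (adjusted p = 4.13e-06).

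**Figure D4:**
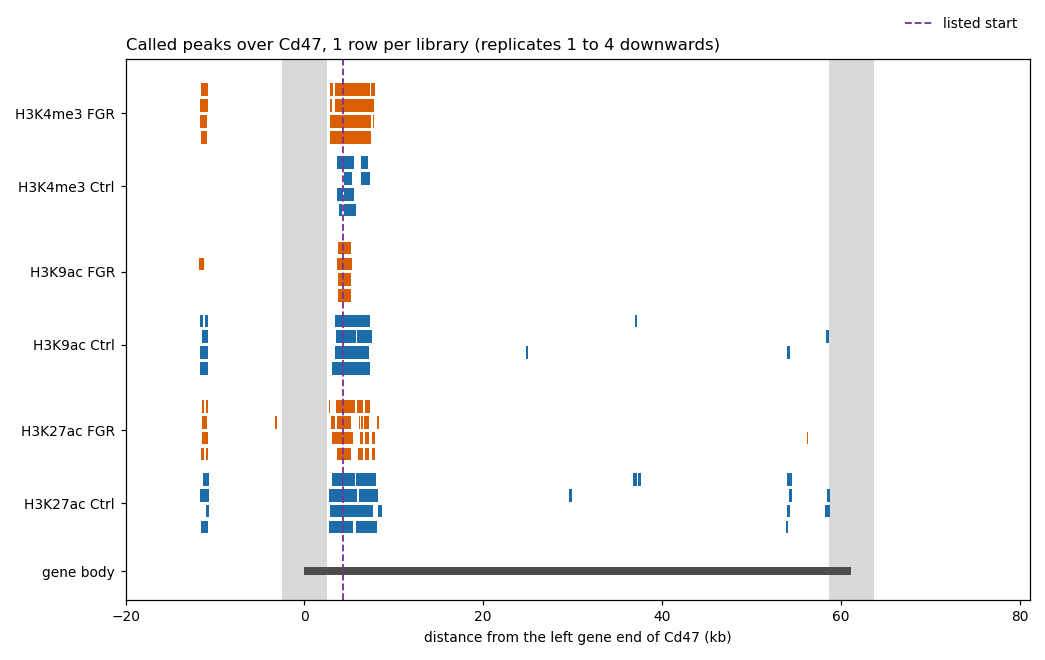
Called peaks over Cd47 with 20 kb flanks, by distance in kb from its left gene end; 1 line per library, FGR (orange) above Ctrl (blue) for each mark, gene-end windows shaded and the listed start dashed. The main peak lies at the listed start, 4.33 kb inside the gene, where H3K9ac is 1.37 to 1.62 kb in FGR and 3.14 to 3.8 kb in Ctrl libraries.

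Counted over gene bodies with flanks, all 10 members could be tested in each mark. In H3K4me3 10 of 10 were higher in FGR as deposited (97% of 16698 genes) and 0 lower (0.018%), and after quantile normalization 4 were higher (Mertk, Pros1, Sirpa and Elmo1; 17.9%) and 1 lower (Mfge8; 25.1%), with Tyro3 turning to -0.304 kb without a call. In H3K9ac 7 were lower (Mertk, Axl, Pros1, Sirpa, Cd47, Timd4 and Elmo1; 27.3% of 18195 genes) and 1 higher (Mfge8; 33.8%). The H3K9ac counts after quantile normalization were also 7 lower (34.8% of genes) and 1 higher (29.4%). Timd4 passed the coverage filter through 1 group alone, FGR for H3K4me3 and Ctrl for H3K9ac, with 0 kb in every library of the other. The direction of its calls in these marks was thus fixed in advance, and nothing is read from them. In H3K27ac 7 were lower as deposited (Mertk, Axl, Gas6, Pros1, Sirpa, Cd47 and Elmo1; 83.4% of 15293 genes) and 0 higher (0.0458%), and 3 were lower after quantile normalization (Mertk, Sirpa and Elmo1; 11.1%) and 0 higher (12.1%), with Gas6 and Cd47 turning to 0.478 and 0.38 kb without a call. The median H3K9ac difference over the members was -3.48 kb as deposited and -4.02 kb after quantile normalization, beside 0.233 and -0.0806 kb over all genes tested. Window length differs between genes, so the kb of different gene bodies are not on a common scale.

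**Figure D5:**
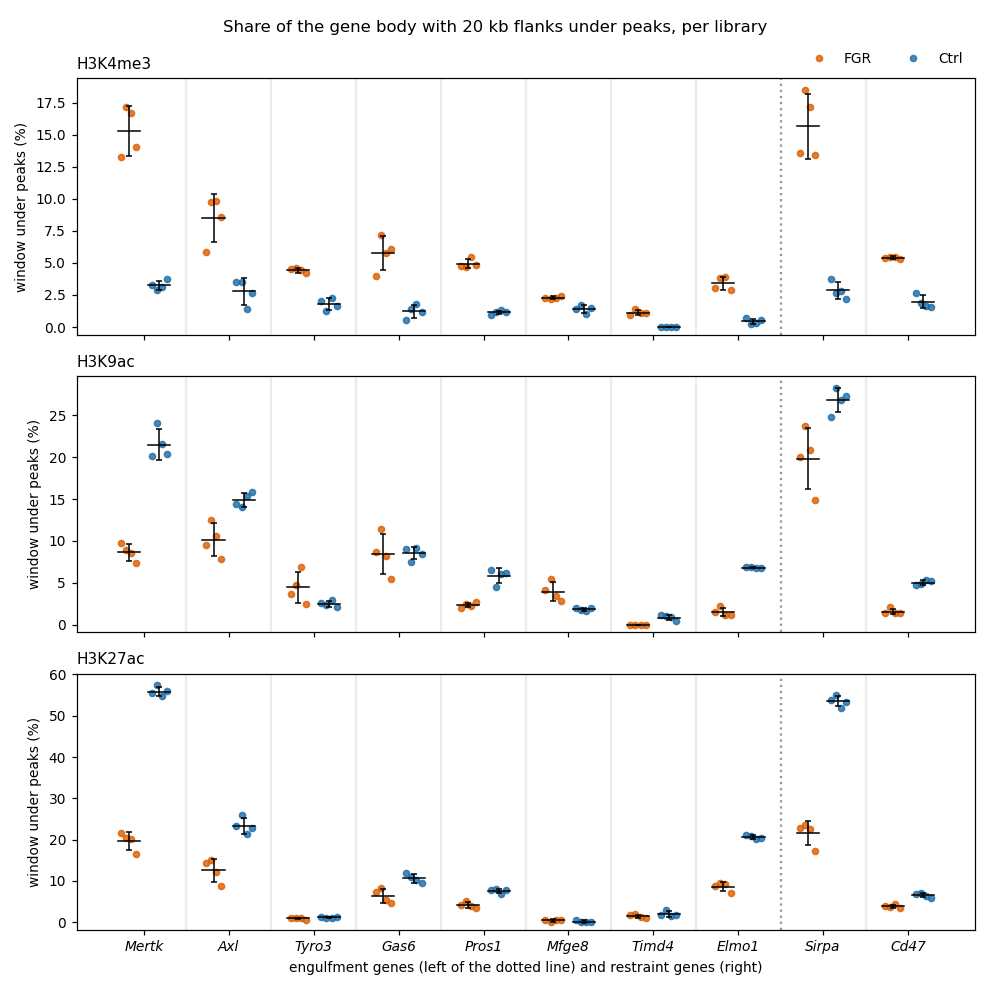
Percent of the gene body with 20 kb flanks under peaks for each of the 10 genes, 1 panel per mark. Each point is a library, FGR (orange) left of Ctrl (blue), with mean and SD (n = 4); in H3K27ac Mertk has 16.6 to 21.6% in FGR and 54.8 to 57.3% in Ctrl, and Sirpa 17.3 to 23.7% in FGR and 52 to 55.1% in Ctrl.

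Setting the restraint genes against the 8 engulfment genes gave no common direction across marks. The summed body H3K27ac of Sirpa and Cd47 was 0.217 to 0.229 of that of the engulfment genes in FGR libraries and 0.216 to 0.218 in Ctrl libraries, and the groups overlapped. In H3K9ac over the body this ratio was 0.412 to 0.45 in FGR and 0.263 to 0.293 in Ctrl, without overlap. At the gene ends it ran the other way, 0.242 to 0.277 in FGR and 0.285 to 0.382 in Ctrl, also without overlap. The gene-end ratios of H3K9ac and H3K4me3 are those of Sirpa alone, since Cd47 has no covered end in these marks. They miss the listed start of Cd47, where mean H3K9ac was 1.46 kb in FGR and 3.43 kb in Ctrl. Over the body the H3K9ac engulfment sum, of which Elmo1 and Mertk hold the greater share in Ctrl, was 32.6 to 50.7 kb in FGR and 94 to 96.9 kb in Ctrl, and the restraint sum 13.4 to 21.3 kb in FGR and 24.9 to 27.8 kb in Ctrl. At the gene ends the H3K27ac ratio was 0.413 to 0.467 in FGR and 0.514 to 0.571 in Ctrl, the opposite order, and it rests on Sirpa, since Cd47 has no covered end in FGR. The H3K4me3 ratio over the body overlapped, at 0.286 to 0.309 in FGR and 0.237 to 0.396 in Ctrl, and at the gene ends it was 0.082 to 0.136 in FGR and 0 to 0.0196 in Ctrl. No test was made on these sums.

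Regions called in every library of 1 group and in none of the other were placed on the members. In H3K4me3, 26 of the 146 merged regions at the members were found in FGR alone (17.8%; 25.4% of all regions), 11 of them at Elmo1 and 5 at Mertk, and 0 in Ctrl alone (0.0218% of all regions). With lists of equal length 1 of 25 was found in FGR alone. In H3K9ac, 22 of 244 were found in Ctrl alone (9.02%; 3.35% of all regions), 13 of them at Elmo1, 4 at Mertk and 3 at Pros1, and 6 in FGR alone (2.46%; 6.29% of all regions), against 25 in Ctrl alone and 1 in FGR alone of 190 with lists of equal length. In H3K27ac 3 of 264 were found in Ctrl alone (1.14%; 1.23% of all regions), 2 at Elmo1 and 1 at Cd47, and 0 in FGR alone (0.157% of all regions). That count in Ctrl alone was 15 of 216 with lists of equal length, and 38 of 264 where at least 50% of a region had to be covered. The share over all regions was taken for the deposited lists alone. Counts at the members under the other settings therefore cannot be told from a change across the whole lists. Of the 26 H3K4me3 regions found in FGR alone in the deposited lists, 9 lay over an H3K9ac region found in Ctrl alone (34.6%), beside 13.7% of such regions in the genome. An example is Elmo1, with chr13:20312895-20314014 for FGR H3K4me3 and chr13:20312664-20314640 for Ctrl H3K9ac, 222 kb into the gene.

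H3K9me3 could not be compared on a common footing. In the broad lists of replicates 1 to 3, all 10 members were lower in FGR and 0 higher (78.8% and 0.0447% of 20114 genes), for example Elmo1 with 0, 0 and 0 kb in FGR and 53.8, 36.6 and 26.2 kb in Ctrl libraries. Mertk, Axl, Tyro3, Gas6, Cd47, Timd4 and Elmo1 had 0 kb in every FGR library. These genes passed the coverage filter through Ctrl alone, so their direction was fixed in advance. The lists differed in threshold: at a -log10 q of at least 1.3, the FGR lists kept 14008 to 16506 peaks and the Ctrl lists 70 to 78. On that single threshold only Pros1 could be tested. It had 1.44, 1.27 and 2.79 kb in FGR, against 0 kb in Ctrl libraries, a difference of 1.83 kb, the reverse of its direction in the deposited lists. Pros1 passed the coverage filter through its FGR libraries alone. With 70 to 78 peaks left in a Ctrl list, the direction of a testable gene was all but fixed in advance. No result is read from it. With lists of equal length limma called 0 members. After quantile normalization limma called 2 higher (Tyro3 and Pros1; 20.3% of genes) and 3 lower (Cd47, Timd4 and Elmo1; 20.5%). Tyro3, however, had 0 kb in all 3 FGR libraries, and its normalized FGR value of 1.48 kb is the tie value that every gene without FGR coverage received, Mertk, Axl, Gas6, Cd47, Timd4 and Elmo1 included. Nothing is read from normalized H3K9me3 at these genes. Of 231 merged regions at the members, 44 were found in Ctrl alone (19%; 17.2% of all regions) and 0 in FGR alone (0.0453%). The replicate 4 lists were narrow and were not tested.

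The wider pathway was read from 65 genes in lists drawn up for uptake, find-me signals, restraint, shedding and cargo digestion. In gene-end H3K4me3, 56 of 57 tested were higher in FGR and 0 lower as deposited, and 13 higher and 8 lower after quantile normalization, beside 95.5% of all genes higher as deposited and 15.8% higher and 24.2% lower after quantile normalization. In H3K9ac 18 of 60 were higher and 27 lower as deposited, and 18 higher and 25 lower after quantile normalization, beside 28.5% of all genes higher and 30% lower as deposited and 23% higher and 31.6% lower after quantile normalization. In H3K27ac 53 of 55 were lower and 0 higher as deposited, and 11 lower and 3 higher after quantile normalization, beside 81.6% of all genes lower as deposited and 11.3% lower and 12.5% higher after quantile normalization. By list and as deposited, lower H3K9ac was called at 7 of 15 further phosphatidylserine receptors and bridging genes, 6 of 10 genes of exposure and find-me signals, 4 of 13 of uptake signalling, 3 of 7 of restraint signalling, 2 of 2 shedding proteases and 5 of 13 of cargo digestion and lipid efflux. Higher H3K9ac was called at 4, 3, 6, 1, 0 and 4 genes of the same lists in that order. Lower H3K27ac was called at 13 of 13, 9 of 10, 10 of 10, 7 of 7, 2 of 2 and 12 of 13, and after quantile normalization at 1, 3, 2, 0, 1 and 4. Higher H3K4me3 was called at 14 of 14, 9 of 9, 13 of 13, 6 of 6, 2 of 2 and 12 of 13, and after quantile normalization at 1, 4, 3, 1, 0 and 4. The genes named are those with the greatest differences in the lists. P2ry12, a purine receptor of microglia, had the greatest difference in both H3K4me3 and H3K9ac: its H3K4me3 was 7.99 ± 0.165 kb in FGR and 2.49 ± 0.344 kb in Ctrl, and its H3K9ac 1.57 ± 0.233 kb in FGR and 7.12 ± 0.254 kb in Ctrl (SD, n = 4; adjusted p = 1.75e-07 and 3.32e-07). Cx3cr1, the fractalkine receptor, had 3.69 ± 0.204 kb of H3K9ac in FGR and 6.35 ± 0.549 kb in Ctrl (adjusted p = 5.75e-05). C1qc, a chain of complement C1q, had 6.59 ± 0.294 kb of H3K4me3 in FGR and 2.8 ± 0.513 kb in Ctrl (adjusted p = 2.53e-06; 0.0766 after quantile normalization).

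Side by side, FGR H3K4me3 at P2ry12 was thus nearest to Ctrl H3K9ac, and FGR H3K9ac nearest to Ctrl H3K4me3. The lipid transporter gene Abca7 and the nuclear receptor gene Ppard were higher in gene-end H3K9ac. Abca7 had 5.7 ± 0.534 kb in FGR and 2.06 ± 0.431 kb in Ctrl (adjusted p = 2.41e-05), and Ppard 4.36 ± 0.671 kb in FGR and 2 ± 0.179 kb in Ctrl (adjusted p = 0.000237). In H3K27ac the integrin gene Itgb5, whose product binds Mfge8, had 3.22 ± 0.63 kb in FGR and 7.74 ± 0.169 kb in Ctrl (adjusted p = 2.48e-06). Rac1, the GTPase downstream of Elmo1, had 1.97 ± 0.561 kb in FGR and 6.01 ± 0.496 kb in Ctrl (adjusted p = 5.8e-06). Both stayed lower after quantile normalization (adjusted p = 0.000298 and 0.000453).

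Over the 24 libraries of the 3 active marks, the genes whose gene-end coverage was most like that of Mertk were Tnfaip3, Zfp652 and Tubgcp5, with Pearson r of 0.968, 0.968 and 0.967 among 16007 genes. The gene at rank 100 still had 0.929, and all genes share the same libraries and marks. For Cd47 the closest were Slc24a1, Cxcr2 and Cpeb2, at 0.915, 0.901 and 0.899, but its gene ends were covered in just 2 of the 24 libraries.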

How the data were processed

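The measurements are called peaks of H3K4me3, H3K9ac, H3K27ac and H3K9me3 from ULI-NChIP-seq, 32 lists in all; the 2 input libraries come without a list and were left aside. The submitters' processing notes name the build mm10 and the tools MACS2 2.2.7.1, Bowtie2 2.4.5, DiffBind 3.12.0, SAMtools 1.3.1 and Trim Galore 0.6.5, without their settings. The deposited lists give, per peak, the authors' display score, a fold enrichment over local background, and −log10 p and −log10 q values. H3K9me3 lists are broad for replicates 1 to 3 and narrow for replicate 4, per the file columns. The lists are per library and hold no read counts, so sequencing depth is unknown, and peak length moves with depth and with the calling threshold.

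Covered kb per gene and library were summed on RefSeq genes of GRCm38.p6 after merging overlapping peaks, within 2.5 kb of either gene end and over the gene with 20 kb flanks. FGR and Ctrl were compared per mark with limma 3.58.1 in R 4.3.3 (lmFit and eBayes) on kb, over all genes with coverage in at least 2 libraries, with Benjamini-Hochberg adjustment and a threshold of 0.05; the fit was tested on simulated data. Quantile normalization, lists of equal length, a stricter threshold (−log10 q of at least 3), lists after depth matching, no filter, log2(kb + 0.1), a replicate block, listed starts, 5 kb flanks and leaving out each library were run as alternatives. The local background of a peak was solved from its fold and −log10 p. Same-numbered FGR and Ctrl libraries did not deviate together, so no block was used.

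The genes named are the 10 members, the 2 genes of the pathway lists with the greatest called difference per active mark and direction, and the 3 genes most like Mertk and Cd47. H3K4me3 and H3K27ac each name 2 genes in 1 direction alone, since none passed in the other. The members and lists were chosen with earlier results of these data known. Promoter sequences are those of the RefSeq table of GRCm38.p6.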

Additional observations from a re-analysis of the deposited data

Results flagged for a closer look

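In 8 of 105 groups of 4 libraries with values at the members, 1 library stood apart from the other 3 by Dixon's criterion. Its rate of about 1 in 20 by chance holds for independent, normally distributed values. These groups share peaks between windows and hold values at 0 kb, so the 8 cannot be set against that rate. Sirpa H3K9ac at the gene ends was 3.385 kb in FGR replicate 4, against 3.927 to 4.034 kb in the other FGR libraries. Sirpa H3K27ac over the gene body was 14.016 kb in FGR replicate 4, against 18.367 to 19.209 kb in the other FGR libraries. Cd47 H3K9ac over the body was 2.101 kb in FGR replicate 2, against 1.37 to 1.454 kb in the other FGR libraries. Mfge8 H3K27ac was 0.0 kb in FGR replicate 2, against 0.347 to 0.364 kb in the other FGR libraries, and 0.334 kb in Ctrl replicate 1, against 0.0 kb in the other Ctrl libraries; the gene-end and gene-body values are the same, since 1 peak makes them both. Timd4 H3K27ac over the body was 2.23 kb in Ctrl replicate 2, against 1.064 to 1.245 kb in the other Ctrl libraries. Outside the tested lists, Pros1 had 1.305 kb of H3K9me3 over its body in the narrow list of FGR replicate 4, and the narrow list of Ctrl replicate 4 had 0 kb there.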

How the results depend on the processing

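Peak lists without read counts limit these results: depth is unknown, and the covered length of a gene depends on the threshold and depth of its library. Quantile normalization moved the most. It left 2 members higher and 1 lower in gene-end H3K4me3, 2 higher and 2 lower in gene-end H3K27ac, 4 higher and 1 lower in gene-body H3K4me3, 3 lower in gene-body H3K27ac, and 2 higher and 3 lower in H3K9me3. Its reversed differences in kb were -0.643 at Mertk and -0.4472 at Mfge8 (gene-end H3K4me3), 0.1074 at Axl, 0.08 at Gas6, 0.4233 at Pros1 and 0.78 at Elmo1 (gene-end H3K27ac), -0.3039 at Tyro3 and -0.9021 at Mfge8 (gene-body H3K4me3), 0.4778 at Gas6 and 0.3797 at Cd47 (gene-body H3K27ac), and 0.2649 at Axl, 0.7806 at Tyro3, 0.5244 at Gas6, 9.9832 at Pros1, 2.7761 at Mfge8 and 2.1561 at Sirpa (H3K9me3). The signs at Axl, Tyro3 and Gas6 in H3K9me3 follow from the 1.48 kb given to all genes at 0 kb in FGR and say nothing of FGR coverage. With lists of equal length, 0 members were higher in gene-body H3K9ac and 0 lower in H3K9me3, where Pros1 turned to 1.8323 kb and Mfge8 to 0.237 kb. These lists also gave 8 members lower in gene-body H3K9ac, Gas6 among them (adjusted p = 0.0136), added Timd4 as lower in gene-body H3K27ac (adjusted p = 0.0311) and lost Axl in gene-end H3K4me3 (adjusted p = 0.145). Over all genes tested, the median gene-body H3K9ac difference moved from 0.233 kb as deposited to -0.202 kb with these lists. One threshold for both groups gave 1 higher and 0 lower in H3K9me3, with Pros1 at 1.8323 kb, a direction all but fixed by the few Ctrl peaks left. With 5 kb flanks 2 were higher in gene-body H3K9ac, and Axl turned to 0.058 kb. Mfge8 and Sirpa lost their H3K9me3 calls with these flanks (limma, adjusted p = 0.298 and 0.344). Without the filter on genes 1 member was higher in gene-end H3K9ac, and Gas6 lost its call in gene-end H3K27ac (limma, adjusted p = 0.0922). After depth matching 1 member, Mfge8, was higher in gene-end H3K27ac and the Gas6 call was lost there too. Leaving out 1 library gave 1 to 2 members higher in gene-end H3K9ac, 1 without Ctrl replicate 2 or 4, and 1 to 2 in gene-body H3K9ac, 2 without FGR replicate 4, where Tyro3 joined. In H3K9me3 Mertk, Axl and Tyro3 each lost the call when any 1 FGR library was left out (limma, adjusted p of 0.061 to 0.0893). Axl also lost it without Ctrl replicate 1 (adjusted p = 0.0575). Shares of all genes called are given above for quantile normalization. None are given for the other settings of this paragraph, so their counts are not read as particular to the members. The cause of these changes was not tested.

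Regions of a single group at the members changed with lists of equal length to 1 in FGR alone for H3K4me3, 1 in FGR alone for H3K9ac, 15 in Ctrl alone for H3K27ac, and 1 in FGR alone and 0 in Ctrl alone for H3K9me3. Asking for at least 50% of a region to be covered gave 38 in Ctrl alone for H3K27ac and 3 in Ctrl alone for H3K9me3. No share over all regions was taken under these settings, so the changes are not read as particular to the members. FGR and Ctrl libraries share only a replicate number: correlations of same-numbered libraries ran from -0.229 to 0.172. The replicate block left 62 results for single members on their side of the threshold and lost 2, both H3K9me3 (Axl, adjusted p = 0.0595, and Tyro3, adjusted p = 0.0896), which took the H3K9me3 count to 8. A sample correlated best with its own number in 3 of 4 pairs for gene-end H3K9ac and in 0 to 2 pairs elsewhere. Of results for single members, 473 kept direction and call when 1 library was left out, 16 lost the call and 1 gained it; under the other alternatives 359 kept both, 24 lost the call, 6 gained it and 20 reversed.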
